A study of Mus musculus with 9 samples.

Results

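The genes described here are the parts of the G1 cell cycle switch: the 3 D-type cyclins (*Ccnd1*, *Ccnd2*, *Ccnd3*), their kinases (*Cdk4*, *Cdk6*), the inhibitors p27 (*Cdkn1b*), p16 and p19Arf (*Cdkn2a*), p15 (*Cdkn2b*) and p18 (*Cdkn2c*), and the retinoblastoma gene *Rb1*. These 10 genes were taken by name from a table of 54347 genes, and all 10 had a row and passed the filter on low counts, as did 13082 genes in all. *Ccnd1* passed it through Hox-WT alone and *Cdkn2b* through Hox-URE alone. Poly-A RNA of 3 mouse myeloid lines was sequenced in 3 libraries each, to ask what low PU.1 does to progenitors and to the leukemia that follows. Hox-WT (genotype wild type) and Hox-URE (genotype UREd/d) are progenitors from bone marrow, immortalized with a Hoxb8 protein fused to the estrogen receptor, and each came from a single mouse. UREd/d is the homozygous loss of the URE, an upstream enhancer of *Spi1*, which encodes PU.1. URE-AML (labelled B22, AML blast-like) carries the same deletion and was grown out of leukemic blasts of a mouse without the enhancer. By the labels all 3 lines were kept in the same medium with IL-3, IL-6, SCF and estradiol. Each genotype and stage is 1 line, so every difference below is between lines, and the labels do not say whether libraries of a line were separate cultures, so p-values measure only the spread between libraries, which may be technical.

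In G1, a D cyclin binds CDK4 or CDK6, and the pair phosphorylates the retinoblastoma protein, which then lets go of E2F factors and so frees the genes of DNA replication. INK4 proteins (p16, p15, p18 and p19Ink4d) bind CDK4 and CDK6 and keep the cyclin off, while CIP/KIP proteins such as p27 bind whole cyclin and kinase complexes. *Cdkn2a* also encodes p19Arf, which acts on p53 through Mdm2, and hematopoietic cells are known to lean on cyclins D2 and D3 and on CDK6.

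Library depth was 20331064 to 28588718 counts, and 3 counts in a library corresponded to 0.104 to 0.153 CPM, the unit of level used here, in which a library's total and its TMM factor are both divided out. These limits, like the ratio intervals below, cover counting error only. Where 3 values follow each other with no line named, the first is of Hox-WT, the next of Hox-URE and the last of URE-AML. The gene next to the deleted enhancer, *Spi1*, had 2932, 2832 and 2791 counts in Hox-WT, 1, 1 and 0 in Hox-URE and 62, 116 and 148 in URE-AML. *Hoxb8* was at 0 counts in each URE-AML library, while Hox-WT had 1725 to 2016 and Hox-URE 2503 to 3481. The lines also differed in what kind of cell they resembled. Summed over 7 myeloid progenitor markers, the level was 5576 to 8534 CPM in Hox-WT libraries, 1178 to 1655 in those of Hox-URE and 810 to 923 in those of URE-AML, and 6 of the 7 were lower in each URE line than in Hox-WT. Most of that sum in Hox-WT was *Mpo* (5042, 5.04 and 192 CPM), and *Cd34* had 1, 0 and 0 counts in URE-AML. The 8 markers of maturing neutrophils summed to 56.1 to 91.3 CPM in Hox-WT libraries and 118 to 184 in those of Hox-URE. In URE-AML the sum was 3558 to 5050 CPM, and 7 of 7 tested were higher than in Hox-WT. *Ly6g*, with 0 counts in every Hox-WT library, *Camp* and *Ltf* passed the filter on low counts only through URE-AML, where they were high. *Mmp9*, at 0 to 7 counts in each library, was not tested. Hox-URE, relative to Hox-WT, had 4 of the 7 lower and only *Lcn2* higher, a gene that made up most of its sum (8.06 CPM in Hox-WT and 133 in Hox-URE), while *S100a8* had 38.4 and 0.0723 CPM. The 6 basophil and mast cell markers summed to 483 to 838 CPM in Hox-WT libraries, 1613 to 5892 in those of Hox-URE and 31.4 to 62.7 in URE-AML. Of the 5 tested, 4 were higher in Hox-URE and 3 lower in URE-AML relative to Hox-WT. *Cpa3* made up most of the sum in the Hox lines (548, 2665 and 1.37 CPM), while *Prss34* had 0.213, 706 and 0.56 CPM. *Mcpt8* was higher in URE-AML too (8.56, 83.8 and 32.5 CPM). In bulk RNA, fewer cells of a kind and less RNA per cell cannot be told apart, and the part of cell makeup in the values below was not tested.

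Hox-URE had less *Ccnd1*, *Ccnd2* and *Cdk4* mRNA than Hox-WT, more *Ccnd3* and *Rb1*, and far more *Cdkn2b* and *Cdkn2c*. URE-AML had the most *Ccnd3*, *Ccnd2* at the Hox-WT level, hardly any *Cdkn2a* or *Cdkn2b*, and *Cdkn2c* near the Hox-WT level. A gene was called at a Benjamini-Hochberg adjusted p under 0.05 in edgeR's quasi-likelihood F test and a fold change over 1.5. Of the 10 members, 4 were called higher in Hox-URE relative to Hox-WT, where 21.3% of all tested genes were, and 3 were called lower, against 15.9% of all. URE-AML relative to Hox-WT had 3 members higher and 3 lower, beside 23.0% and 20.2% of all tested genes. Between the URE lines, URE-AML relative to Hox-URE, 2 members were higher and 3 lower, beside 20.3% and 22.4%. The counts include *Ccnd1* and *Cdkn2b*, each of which passed the filter only through the line where it was high. The median log2 fold change of the members was 0.56, -0.21 and -0.14 in these comparisons, with a median of all tested genes at 0.00 in each.

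**Figure D1:**
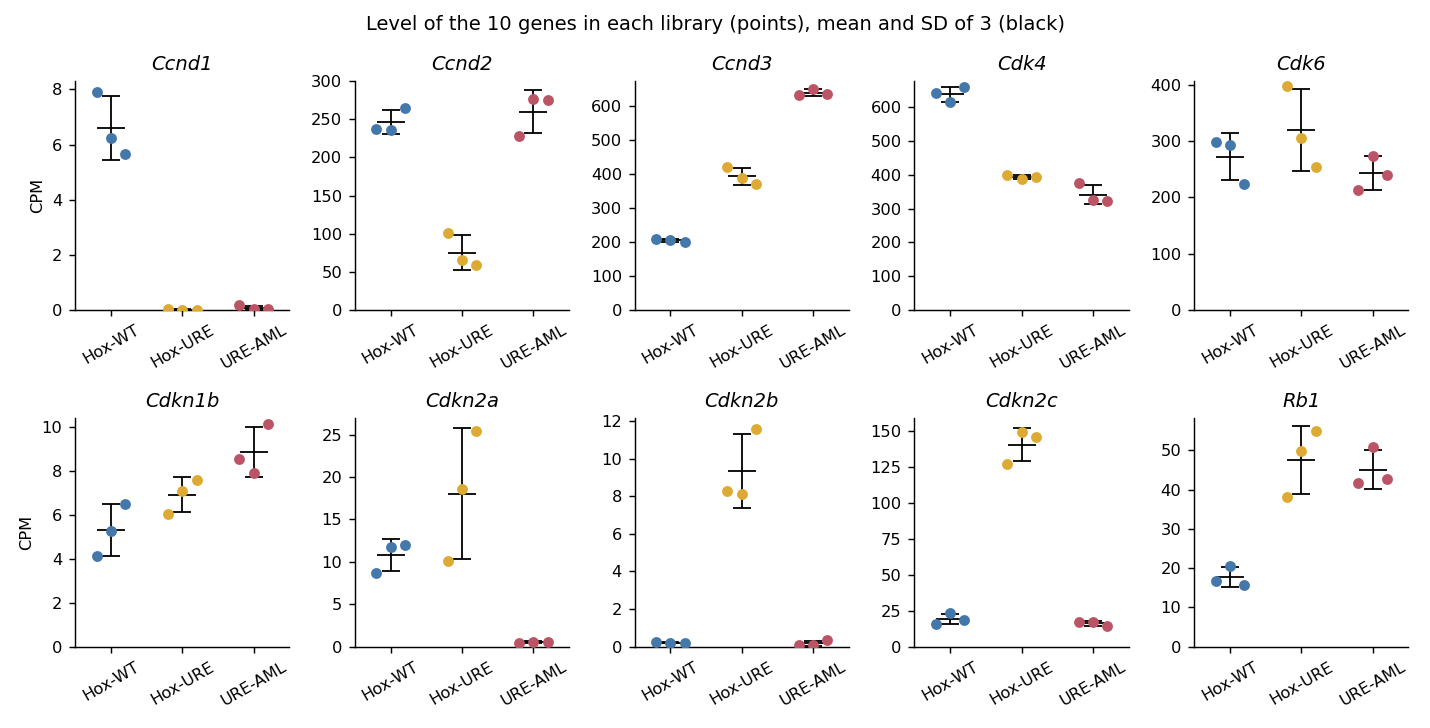
Each panel plots the CPM of a gene (y axis, linear from 0) in the 3 libraries of each line (points, in the order of the library numbers), with the mean and SD of the 3 in black. *Ccnd1* stands above 0.2 CPM only in Hox-WT, *Cdkn2b* above 0.4 CPM only in Hox-URE, and the 3 *Cdkn2a* points of URE-AML lie at 0.444 to 0.601 CPM.

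*Ccnd1* (ENSMUSG00000070348, chromosome 7, 144929931 to 144939925 of GRCm38, minus strand), which encodes cyclin D1, was a minor cyclin in Hox-WT and nearly absent from both URE lines. It had 211, 175 and 164 counts in the Hox-WT libraries, 1, 0 and 0 in Hox-URE and 4, 1 and 1 in URE-AML. No library of a URE line came near the lowest Hox-WT library. Pooled over libraries and scaled, Hox-WT held 468 times the Hox-URE level (95% counting interval 83.7 to 18530; edgeR adjusted p = 1.94e-06) and 75.8 times the URE-AML level (34.6 to 207; edgeR adjusted p = 2.2e-06). These sizes rest on few counts: the fitted log2 fold change went from -8.44 to -10.35 without Hox-URE library 1, and from -6.18 to -7.04 without URE-AML library 1, and both stayed called. The 6 pooled counts of URE-AML against 1 of Hox-URE gave a ratio of 6.18 with an interval of 0.75 to 284, and edgeR did not call it (adjusted p = 0.0728). It was called without Hox-URE library 1, which held the only count (adjusted p = 0.0378). The 3' end of *Ccnd1* overlaps *LTO1* on the opposite strand over 818 bases. The libraries were stranded, but the setting used for quantification is not given in the sources used here, and *LTO1* had 79 to 199 counts per library. Hox-URE had more *LTO1* than Hox-WT (5.86 against 3.28 CPM, log2 0.84, edgeR adjusted p = 0.0287), the opposite direction to *Ccnd1*. The only other tested coding gene within 200 kb, *Fgf3*, a fibroblast growth factor gene at 85495 bp, was lower in the URE lines: its means were 38.1, 8.35 and 0.0428 CPM, and it was called lower in all 3 comparisons.

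*Ccnd2* (ENSMUSG00000000184, chromosome 6, 127125162 to 127152193, minus strand), the cyclin D2 gene and a known target of growth factor signals, was low in Hox-URE only. Its counts were 6343, 6606 and 7654 in Hox-WT, 2780, 1585 and 1153 in Hox-URE and 5633, 5825 and 6424 in URE-AML. In CPM this was 246 ± 16.1, 75.3 ± 22.7 and 260 ± 28.2 (SD, n = 3 each). All Hox-URE libraries lay below all others, while those of Hox-WT and URE-AML overlapped. *Ccnd2* fell by 1.71 ± 0.19 on the log2 scale (SE, edgeR adjusted p = 3.73e-05) from Hox-WT to Hox-URE. URE-AML exceeded Hox-URE by 1.79 ± 0.19 (edgeR adjusted p = 2.03e-05). URE-AML and Hox-WT differed by 0.08 on the log2 scale, with a 95% confidence interval of -0.32 to 0.48 and an adjusted p of 0.731 in edgeR. Of 4 tested coding neighbours within 200 kb, Hox-URE had 1 lower relative to Hox-WT, and URE-AML had 2 higher relative to Hox-WT and 3 relative to Hox-URE. *Tigar*, a regulator of glycolysis 15605 bp away, had a mean of 19.6, 13.2 and 33.7 CPM, and *Rad51ap1*, a recombination gene, had 25.9, 16.7 and 35.2. *Fgf23* had 0, 0 and 1.11 CPM, and *D6Wsu163e* was called in no comparison.

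*Ccnd3* (ENSMUSG00000034165, chromosome 17, 47505051 to 47599691, plus strand), the cyclin D3 gene, stepped up from line to line. It had 5581, 5767 and 5747 counts in Hox-WT, 11561, 9398 and 7258 in Hox-URE and 15690, 13689 and 14780 in URE-AML. The means were 205 ± 5.33, 394 ± 25.4 and 640 ± 9.96 CPM (SD, n = 3 each), and no 2 lines overlapped. The log2 fold change was 0.94 ± 0.08 for Hox-URE against Hox-WT (edgeR adjusted p = 7.73e-06), 1.64 ± 0.08 for URE-AML against Hox-WT (edgeR adjusted p = 8.68e-08) and 0.70 ± 0.08 for URE-AML against Hox-URE (edgeR adjusted p = 4.37e-05). A processed pseudogene, *Ccnd3-ps*, shares 881 bases with *Ccnd3* at 96.3% identity and had 0 or 1 count in each library. Of 10 tested coding neighbours, Hox-URE had 1 higher and 2 lower relative to Hox-WT, while both comparisons of URE-AML called 2 higher and 1 lower. *Guca1a*, 104467 bp away, was lower in all 3 (16.3, 7.34 and 0.0278 CPM), and *Usp49*, at 30999 bp, had 9.77, 4.85 and 12.0 CPM. *Tfeb*, which encodes a regulator of lysosome genes 137339 bp away, was called higher in all 3 comparisons, with means of 6.51, 12.4 and 22.9 CPM. *Bysl*, which overlaps the 3' end of *Ccnd3* on the other strand, was called in none (87.3, 76.2 and 88.6 CPM).

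Levels of different genes were compared per kb of annotated exon. Summed over the 3 cyclins, the level was 50.9 ± 1.06, 52.9 ± 5.28 and 101 ± 3.73 CPM per kb (SD, n = 3 each). The totals of the Hox lines overlapped, and those of URE-AML, 96.4 to 104, lay above all others. *Ccnd2* made up 51.4 ± 2.38% of that sum in Hox-WT, but 14.9 ± 2.95% in Hox-URE, and 27.4 ± 2.06% in URE-AML. *Ccnd3* made up 45.9 ± 1.98%, 85.1 ± 2.95% and 72.5 ± 2.05%, and *Ccnd1* 2.76 ± 0.50% in Hox-WT and under 0.04% in every library of the URE lines. These shares depend on the length taken for *Ccnd3*, whose exons cover 8775 bases while its longest coding transcript has 2113. With the longest coding transcript of each gene the share of *Ccnd3* was 70.4%, 94.1% and 88.1%, so that *Ccnd3*, not *Ccnd2*, led in Hox-WT. The total was then 138, 198 and 344 CPM per kb. The Hox lines did not overlap in that total, at 136 to 139 CPM per kb in Hox-WT and 185 to 215 in Hox-URE. The order of the lines in the share of each cyclin was the same with both lengths.

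**Figure D2:**
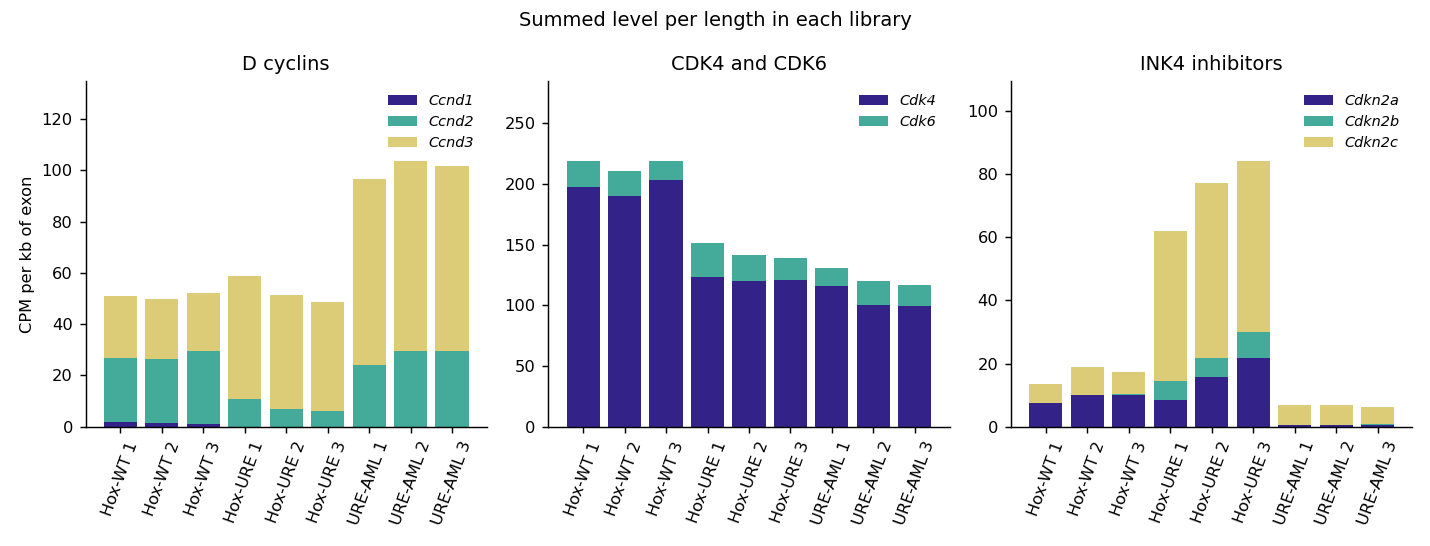
Stacked bars give CPM per kb of exon (y axis, linear from 0) in each of the 9 libraries for the D cyclins, the 2 kinases and the 3 INK4 genes among the members. The *Ccnd2* part shrinks in Hox-URE, and the *Ccnd3* part is largest in URE-AML. Without *Cdkn2d*, the INK4 total runs from 6.10 to 6.90 CPM per kb in URE-AML and from 61.8 to 84.2 in Hox-URE.

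*Cdk4* (ENSMUSG00000006728, chromosome 10, 127063534 to 127067920, plus strand) was the more abundant kinase per length in every line and was lower in both URE lines. It had 17110, 17244 and 19058 counts in Hox-WT, 10974, 9389 and 7683 in Hox-URE and 9302, 6871 and 7529 in URE-AML, or 639 ± 21.8, 394 ± 5.38 and 342 ± 29.3 CPM (SD, n = 3 each). Neither URE line overlapped with Hox-WT. From Hox-WT *Cdk4* fell by 0.70 ± 0.09 on the log2 scale in Hox-URE (edgeR adjusted p = 9.83e-05) and by 0.90 ± 0.09 in URE-AML (edgeR adjusted p = 1.12e-05). The URE lines did not overlap either, but their difference of -0.20 (95% confidence interval -0.40 to -0.01) was not called (edgeR adjusted p = 0.0685). *Tspan31*, whose 3' end overlaps that of *Cdk4* on the other strand over 641 bases, had 85.2, 105 and 109 CPM and was called in no comparison. Of the 16 tested coding genes within 200 kb, Hox-URE had 4 higher and 2 lower relative to Hox-WT. URE-AML had 0 higher and 4 lower relative to Hox-WT, and 1 higher and 6 lower relative to Hox-URE.

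*Cdk6* (ENSMUSG00000040274, chromosome 5, 3341485 to 3531008, plus strand) did not pass the test between any lines. Its counts were 7969, 8219 and 6492 in Hox-WT, 10911, 7389 and 4967 in Hox-URE and 5291, 5761 and 5593 in URE-AML, and the 3 lines overlapped in CPM. The log2 fold changes were 0.23 (95% confidence interval -0.16 to 0.62) for Hox-URE and -0.17 (-0.55 to 0.22) for URE-AML against Hox-WT, and -0.40 (-0.78 to -0.01) for URE-AML against Hox-URE, with edgeR adjusted p of 0.293, 0.44 and 0.0753. Per kb of exon the kinases summed to 216 ± 4.80, 144 ± 6.56 and 123 ± 7.44 CPM per kb (SD, n = 3 each). *Cdk4* was 91.0%, 84.2% and 85.8% of that sum.

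The promoter of *Cdk4* is shown because it held the most matches to the motifs searched. Promoter windows came from RefSeq (GRCm38.p6), which matched 7 of the 10 members, not *Ccnd1*, *Ccnd2* or *Rb1*. The 250 bases before each start were searched on both strands for GAGGAAG (ETS, including PU.1), TGTGGT (RUNX), TTCNNNGAA (STAT), TTTNGCGC (E2F), GGGCGG (SP1), CACGTG (E-box), GTAAACA (FOXO) and GTCTAGAC (SMAD). Windows are printed in the direction of the gene and end where annotated exons begin, with matches in capitals, and no matches printed here overlap.
*Cdk4*, chr10:127063285-127063533, plus strand: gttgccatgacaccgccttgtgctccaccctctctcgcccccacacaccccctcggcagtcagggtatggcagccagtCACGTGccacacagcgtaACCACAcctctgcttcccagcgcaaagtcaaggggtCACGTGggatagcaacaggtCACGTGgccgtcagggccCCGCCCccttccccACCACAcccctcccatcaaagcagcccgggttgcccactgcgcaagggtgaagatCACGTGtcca
This window held CACGTG at 4 places, beginning at positions -172, -118, -98 and -11 from the start, the RUNX letters at -154 and -66 and the SP1 letters at -80. Of 32851 windows of the same length, 6.02% held CACGTG at least once and 0.0213% at least 4 times, while 14.0% held the RUNX letters and 32.7% the SP1 letters. A match to letters is a description and does not show binding.

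*Cdkn1b* (ENSMUSG00000003031, chromosome 6, 134920401 to 134925513, plus strand), which encodes p27, was scarce in all lines and highest in URE-AML. It had 110, 148 and 188 counts in Hox-WT, 166, 171 and 149 in Hox-URE and 212, 166 and 236 in URE-AML, or 5.30 ± 1.19, 6.91 ± 0.80 and 8.86 ± 1.15 CPM (SD, n = 3 each). URE-AML lay above both other lines, which overlapped. Against Hox-WT it was higher in URE-AML by 0.74 ± 0.20 on the log2 scale (edgeR adjusted p = 0.00946). The differences of 0.38 for Hox-URE against Hox-WT and 0.36 for URE-AML against Hox-URE were not called (edgeR adjusted p = 0.139 and 0.149). p27 is known to be controlled largely at the protein level, which these data do not measure. *Skp2*, the ubiquitin ligase subunit that marks p27 for destruction, had 1411, 1348 and 1417 counts in Hox-WT, 615, 414 and 372 in Hox-URE and 1094, 806 and 992 in URE-AML. Its log2 fold change was -1.36 ± 0.12 in Hox-URE against Hox-WT (edgeR adjusted p = 7.76e-06) and 1.09 ± 0.12 in URE-AML against Hox-URE (edgeR adjusted p = 2.49e-05).

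The INK4 genes *Cdkn2a* and *Cdkn2b* lie side by side on chromosome 4. Both were expressed in Hox-URE, both were close to 0 in URE-AML, and Hox-WT expressed *Cdkn2a* with hardly any *Cdkn2b*. *Cdkn2b* (ENSMUSG00000073802, chromosome 4, 89306299 to 89311039, minus strand), the p15 gene and a known target of TGF-beta signals, had 7, 5 and 6 counts in Hox-WT, 227, 196 and 227 in Hox-URE and 2, 2 and 8 in URE-AML. The Hox-URE libraries stood far above all the others, at 9.33 ± 1.97 CPM (SD, n = 3). Pooled and scaled, Hox-URE held 42.4 times the Hox-WT level (95% counting interval 26.6 to 72.0; edgeR adjusted p = 3.62e-06) and 52.6 times the URE-AML level (29.9 to 102; edgeR adjusted p = 2.29e-06). The latter size depends on URE-AML library 3, without which the fitted log2 fold change went from -5.71 to -6.65. Hox-WT and URE-AML overlapped, and their difference was not detectable at this depth (ratio 1.24, interval 0.57 to 2.82; edgeR adjusted p = 0.662).

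*Cdkn2a* (ENSMUSG00000044303, chromosome 4, 89274471 to 89294653, minus strand) had 230, 329 and 345 counts in Hox-WT, 276, 447 and 498 in Hox-URE and 11, 12 and 14 in URE-AML. The means were 10.8 ± 1.86, 18.0 ± 7.71 and 0.539 ± 0.083 CPM (SD, n = 3 each). The Hox lines overlapped, and URE-AML lay far below both, although above the level of 3 counts. In edgeR the log2 fold change of URE-AML was -4.31 ± 0.38 against Hox-WT (adjusted p = 5.59e-06) and -5.05 ± 0.39 against Hox-URE (adjusted p = 2.1e-06). For Hox-URE against Hox-WT it was 0.74 ± 0.29 and was not called (edgeR adjusted p = 0.0536). That call turned on the settings: it was made without Hox-URE library 1 (1.02, adjusted p = 0.0015), without a filter on low counts (0.0237), with at least 10 counts in every library (0.0487), with the replicate block (0.012) and in DESeq2 (0.0415). Without Hox-URE library 3 the log2 fold change was 0.40 (edgeR adjusted p = 0.246). The gene-level counts add 2 coding transcripts with separate starts, that of p16 (89274471 to 89282192) and that of p19Arf (89274541 to 89294653), and do not say which was made.

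The starts of this locus are printed to show how they differ in the letters searched.
*Cdkn2b*, chr4:89311040-89311282, minus strand: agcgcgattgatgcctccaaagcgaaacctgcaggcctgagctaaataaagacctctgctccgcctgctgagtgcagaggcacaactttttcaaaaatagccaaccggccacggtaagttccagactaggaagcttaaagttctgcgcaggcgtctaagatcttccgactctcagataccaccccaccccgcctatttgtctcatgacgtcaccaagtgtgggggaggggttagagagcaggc
*Cdkn2a* at the p16 start, chr4:89282193-89282442, minus strand: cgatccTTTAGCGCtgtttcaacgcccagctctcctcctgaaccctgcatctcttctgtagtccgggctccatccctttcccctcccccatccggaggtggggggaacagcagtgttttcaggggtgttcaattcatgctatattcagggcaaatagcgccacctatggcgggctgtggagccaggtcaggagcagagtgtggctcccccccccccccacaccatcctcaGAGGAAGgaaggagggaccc
*Cdkn2a* at the p19Arf start, chr4:89294654-89294869, minus strand: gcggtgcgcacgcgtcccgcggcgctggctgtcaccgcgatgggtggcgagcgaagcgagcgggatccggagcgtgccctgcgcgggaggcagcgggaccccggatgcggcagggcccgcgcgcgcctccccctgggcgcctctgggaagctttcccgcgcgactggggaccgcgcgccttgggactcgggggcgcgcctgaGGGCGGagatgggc
The p16 window held the ETS letters GAGGAAG at position -20 and the E2F letters TTTAGCGC at -244, which 10.6% and 1.13% of all windows held on either strand. The p19Arf window held SP1 letters at -48 and, beyond the printed stretch, at -14, and the *Cdkn2b* window held none of the 8 motifs, which says only that these letters are not in it.

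*Mtap*, the methylthioadenosine phosphorylase gene 93390 bp from *Cdkn2a*, was low in the same line. It had 3568, 3266 and 3453 counts in Hox-WT, 3196, 2362 and 1898 in Hox-URE and 38, 28 and 21 in URE-AML. Its log2 fold change in URE-AML was -6.61 ± 0.18 against Hox-WT (edgeR adjusted p = 1.91e-09) and -6.36 ± 0.18 against Hox-URE (edgeR adjusted p = 3.25e-09), and the difference between the Hox lines was not called (-0.25, edgeR adjusted p = 0.126). All 3 tested genes of the stretch from *Mtap* to *Cdkn2b* were thus near 0 in URE-AML, and *Cdkn2b* also in Hox-WT. The genes further out were looked up after these values were seen. *Mllt3*, 1241 kb away on the side of *Mtap*, was lower in URE-AML than in either Hox line (81.3, 49.7 and 13.6 CPM). *Klhl9*, 552 kb away on the side of *Mtap*, had means of 16.8, 39.0 and 30.6 CPM, and *Focad*, at 863.5 kb, had 35.5, 25.4 and 26.9, so both were expressed in URE-AML. Between *Klhl9* and *Mtap*, the low *Gm13285*, at 473.3 kb, had means of 0.213, 1.08 and 0 CPM. *Hacd4*, at 835.5 kb, was low in both URE lines, at 12.7, 0.289 and 0.355 CPM, and the pseudogene *Mrpl48-ps*, at 674.7 kb, was higher in URE-AML (0.0234, 0 and 7.07 CPM). On the other side the nearest tested gene was *Elavl2*, 1956 kb away, at 95.5 CPM in URE-AML, 0 in Hox-WT and 0.268 in Hox-URE. Only RNA was measured, so the number of copies of the locus was not tested.

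**Figure D3:**
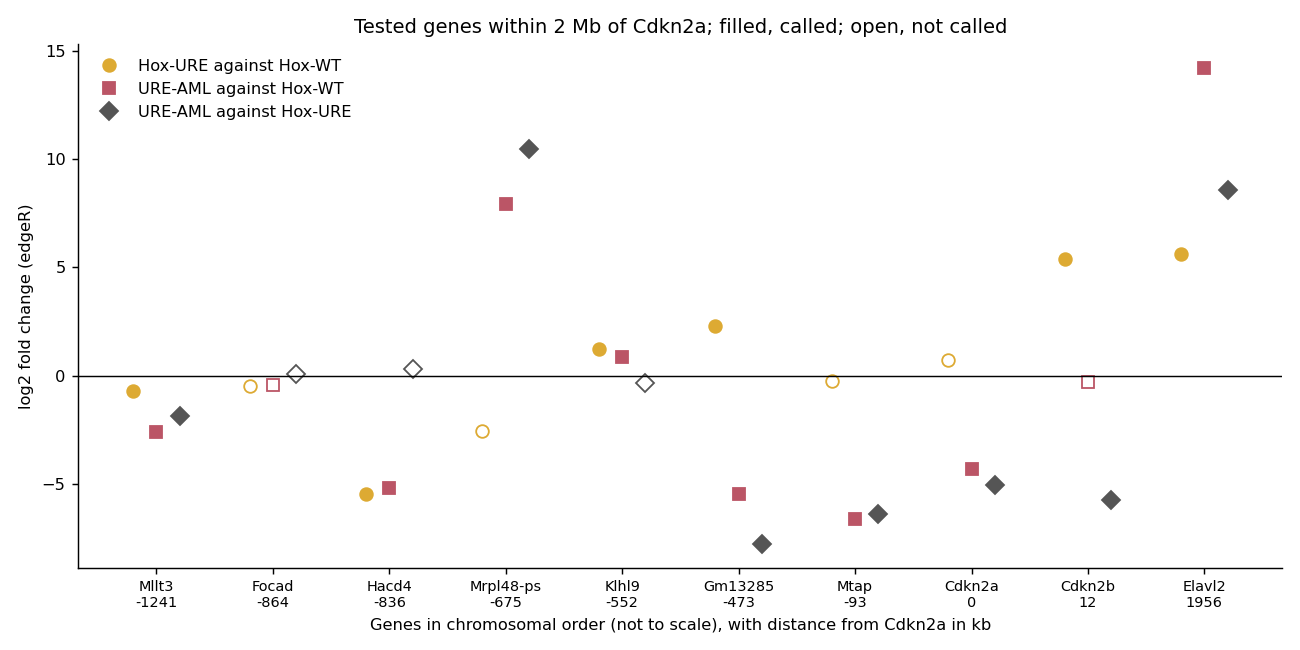
The 10 tested genes within 2 Mb of *Cdkn2a* are plotted in chromosomal order (x axis, not to scale, with the distance in kb) against the edgeR log2 fold change (y axis) in the 3 comparisons. Filled symbols were called. *Mtap* and *Cdkn2a* lie below -4 in both comparisons of URE-AML, *Cdkn2b* only in that with Hox-URE, and *Hacd4* only in those with Hox-WT. Fold changes of genes at 0 counts in a line, such as *Elavl2* and *Gm13285*, which also lies below -4, depend on the prior count.

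*Cdkn2c* (ENSMUSG00000028551, chromosome 4, 109660876 to 109667189, minus strand), the p18 gene, held most of the level per length of the 3 INK4 members in both URE lines. It had 423, 648 and 542 counts in Hox-WT, 3490, 3593 and 2849 in Hox-URE and 430, 356 and 334 in URE-AML, or 19.3 ± 3.67, 141 ± 11.7 and 16.2 ± 1.64 CPM (SD, n = 3 each). Hox-URE lay above every other library, and Hox-WT and URE-AML overlapped. The log2 fold change was 2.87 ± 0.15 in Hox-URE against Hox-WT (edgeR adjusted p = 2.47e-07) and -3.12 ± 0.15 in URE-AML against Hox-URE (edgeR adjusted p = 8.69e-08). URE-AML against Hox-WT gave -0.25, with a 95% confidence interval of -0.57 to 0.08 (edgeR adjusted p = 0.169). Of its 2 tested coding neighbours, *Faf1*, at 9399 bp, was called in no comparison (107, 125 and 105 CPM), and *Rnf11*, at 176148 bp, was higher in both URE lines than in Hox-WT (36.2, 97.4 and 65.2 CPM). Per kb of exon the 3 INK4 members, which leave out *Cdkn2d* (13.9, 18.1 and 38.9 CPM), summed to 16.5 ± 2.75, 74.4 ± 11.4 and 6.62 ± 0.45 CPM per kb (SD, n = 3 each). *Cdkn2a* led in Hox-WT with 55.6% of the sum, and *Cdkn2c* had 70.9% in Hox-URE and 91.0% in URE-AML.

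*Rb1* (ENSMUSG00000022105, chromosome 14, 73183673 to 73325822, minus strand), the substrate of the kinases, was higher in both URE lines. It had 446, 577 and 456 counts in Hox-WT, 1046, 1206 and 1074 in Hox-URE and 1035, 1068 and 993 in URE-AML, or 17.7 ± 2.56, 47.6 ± 8.63 and 45.1 ± 4.98 CPM (SD, n = 3 each). Both URE lines lay above Hox-WT and overlapped with each other. The log2 fold change against Hox-WT was 1.43 ± 0.16 in Hox-URE (edgeR adjusted p = 4.74e-05) and 1.35 ± 0.16 in URE-AML (edgeR adjusted p = 4.91e-05). Between the URE lines it was -0.08 (95% confidence interval -0.43 to 0.27, edgeR adjusted p = 0.69). *Rb1* shares up to 383 bases with *Rcbtb2* and 214 with *Lpar6*, a receptor gene inside an *Rb1* intron, both on the other strand. *Lpar6* had 9.52, 30.5 and 7.17 CPM and *Rcbtb2* 86.1, 66.6 and 133. *Itm2b*, a membrane protein gene 36404 bp from *Rb1*, was called higher in all 3 comparisons (432, 1265 and 2123 CPM). Of the 6 tested coding genes within 200 kb, 2 were called higher in each URE line against Hox-WT.

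**Figure D4:**
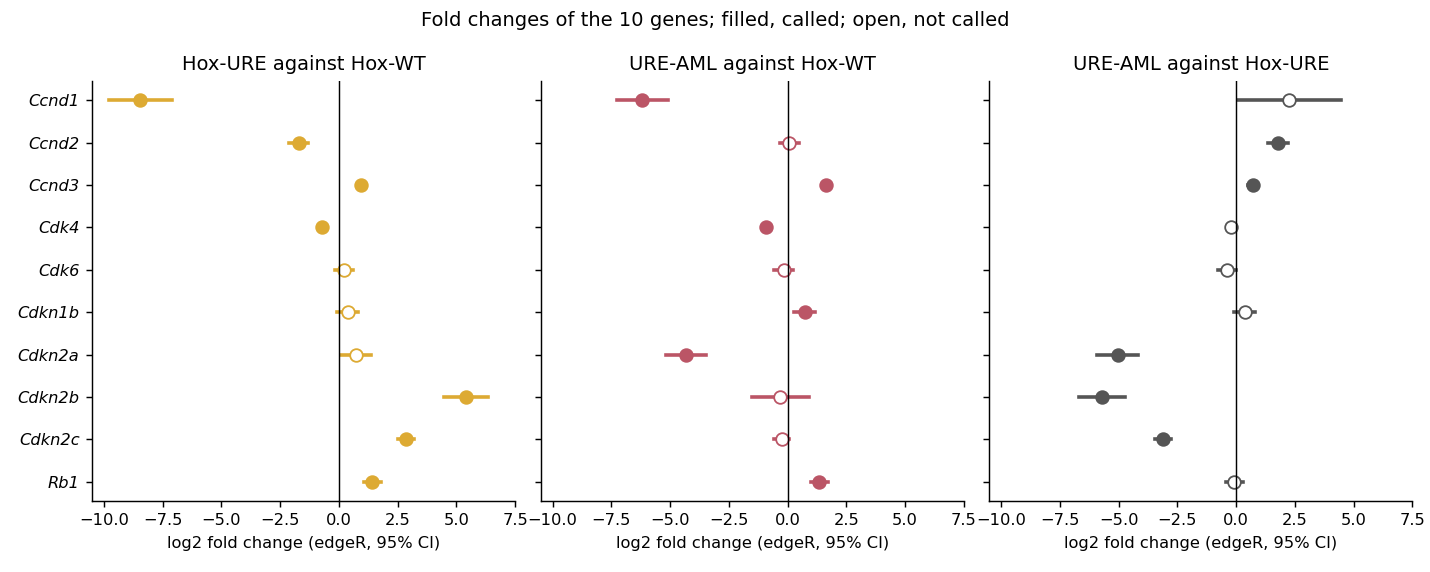
Points give the edgeR log2 fold change of each of the 10 genes (x axis) in the 3 comparisons and bars its 95% confidence interval, and filled points were called. *Ccnd3* is the only member called in the same direction in all 3 panels, *Cdk6* the only one called in none, and the fitted value of *Ccnd1* depends on the prior count because the URE lines held 0 to 4 counts.

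The other genes of the pathway were read in the same 3 comparisons, named here the progenitor comparison (Hox-URE against Hox-WT), the leukemia comparison (URE-AML against Hox-WT) and the comparison of the URE lines (URE-AML against Hox-URE). Of the other inhibitors and the pocket proteins related to *Rb1*, 1 of 5 was called higher in the progenitor comparison, 3 of 5 in the leukemia comparison and 1 of 5 between the URE lines. In edgeR none was called lower, nor in DESeq2, and none had a negative fold change at an unadjusted p under 0.05, except for 1 gene in the progenitor comparison with library size alone as the scaling. *Cdkn2d*, the fourth INK4 gene (p19Ink4d), had 391, 402 and 371 counts in Hox-WT, 566, 423 and 316 in Hox-URE and 850, 923 and 898 in URE-AML, and was higher in URE-AML by 1.48 against Hox-WT and 1.10 against Hox-URE on the log2 scale (edgeR adjusted p = 6.28e-06 and 5.38e-05). *Cdkn1a* (p21, a p53 target) had 130, 193 and 232 CPM and was called only in the leukemia comparison (0.83, edgeR adjusted p = 0.000377). *Cdkn1c* (p57) had 0 counts in every Hox-WT library, 10, 7 and 9 in Hox-URE and 3, 8 and 14 in URE-AML. It was the gene called in the progenitor comparison and 1 of the 3 in the leukemia comparison. These calls rest on few counts, and it passed the filter through the URE lines alone, so against Hox-WT it could only be higher. The pocket protein genes *Rbl1* and *Rbl2* were called in no comparison.

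Cyclin E and CDK2 act after the D cyclins at the entry to S phase, and their 3 genes were all called higher in URE-AML when the URE lines were compared. *Ccne1* had 807, 763 and 761 counts in Hox-WT, 511, 487 and 411 in Hox-URE and 1907, 1665 and 1854 in URE-AML. It was higher in URE-AML by 1.49 on the log2 scale against Hox-WT and by 1.98 against Hox-URE (edgeR adjusted p = 4.37e-07 and 7.91e-08). *Ccne2* was higher by 0.95 and *Cdk2* by 0.68 between the same lines (edgeR adjusted p = 2.3e-05 and 0.000108). In the progenitor comparison 0 of the 3 were called in edgeR or DESeq2, although all 3 had a negative log2 fold change (*Ccne1* -0.49, *Ccne2* -0.58 and *Cdk2* -0.35) with an edgeR adjusted p under 0.05 (0.00153, 0.000833 and 0.00868) and missed the call on the fold change alone. With library size alone as the scaling 2 were called lower.

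Among the 10 genes of E2F and DP factors, 4 were called higher and 1 lower in each URE line relative to Hox-WT, and between the URE lines 1 was higher in URE-AML and 0 lower. *E2f6* (1.36 and 1.5) and *E2f7* (1.28 and 1.76), which encode repressing E2Fs, *E2f2* (0.89 and 2.38), an activating one, and the DP gene *Tfdp2* (0.78 and 0.91) were the higher ones on the log2 scale, with the value of Hox-URE first. *E2f3* was the lower one in Hox-URE (-0.68) and *E2f4* in URE-AML (-0.69). *E2f2* was also the gene called between the URE lines (1.5). For *E2f1*, *E2f5*, *E2f8* and *Tfdp1*, no comparison was called. Between those lines 0 of the 10 had a negative fold change at an unadjusted p under 0.05, and DESeq2 also called 0 lower.

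Of 34 E2F target genes, most of them genes of DNA replication, 15 were called lower and 0 higher in the progenitor comparison, and 12 lower and 0 higher in the leukemia comparison. At an unadjusted p under 0.05 in edgeR, 1 and 2 of them were higher, and DESeq2 also called 0 higher in both. The largest falls in Hox-URE were -1.06 for *Ezh2*, a histone methyltransferase gene, -0.92 for *Mcm7*, a part of the replicative helicase, and -0.91 for *Uhrf1*, which helps keep DNA methylation (edgeR adjusted p = 1.78e-05, 1.43e-05 and 0.00586). In URE-AML they were -0.86 for *Mcm6*, -0.84 for *Chek1* and -0.84 for *Ung* (edgeR adjusted p = 1.8e-05, 0.000222 and 5.24e-05). The list's median log2 fold change was -0.54 in the progenitor and -0.40 in the leukemia comparison, where that of all tested genes was 0.00. Between the URE lines 5 were higher in URE-AML and 2 lower, with a median of 0.15. *Cdc25a* (1.04), *Rfc3* (0.92) and *Gins1* (0.66) led those higher, and *Mcm6* (-0.76) and *Lig1* (-0.60) were lower. With library size alone as the scaling this became 10 higher and 1 lower, and the median of all tested genes moved to 0.11 on the log2 scale. Hox-WT is shared by the first 2 comparisons, so their counts are not independent.

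The 13 proliferation markers, mostly genes of mitosis, were called in both directions. The progenitor comparison called 1 higher and 2 lower, the leukemia comparison 4 higher and 0 lower, and that of the URE lines 7 higher and 1 lower. Their summed level was 1885 to 2038 CPM in Hox-WT libraries, 1654 to 2081 in those of Hox-URE and 2482 to 2785 in URE-AML. *Top2a*, *Aurka* and *Mki67* exceeded Hox-URE in URE-AML by 1.09, 1.05 and 0.86 on the log2 scale (edgeR adjusted p = 0.000137, 2.21e-06 and 0.0104). The markers lower in the progenitor comparison were *Aurka* (-0.73) and *Bub1* (-0.65), and *Birc5* was among those higher in the leukemia comparison (0.65). *Ccnb1* (cyclin B1) moved the other way, with 1.02 in the progenitor comparison and -0.99 between the URE lines. In the leukemia comparison 1 marker was lower at an unadjusted p under 0.05 in edgeR, and DESeq2 called 0 lower.

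**Figure D5:**
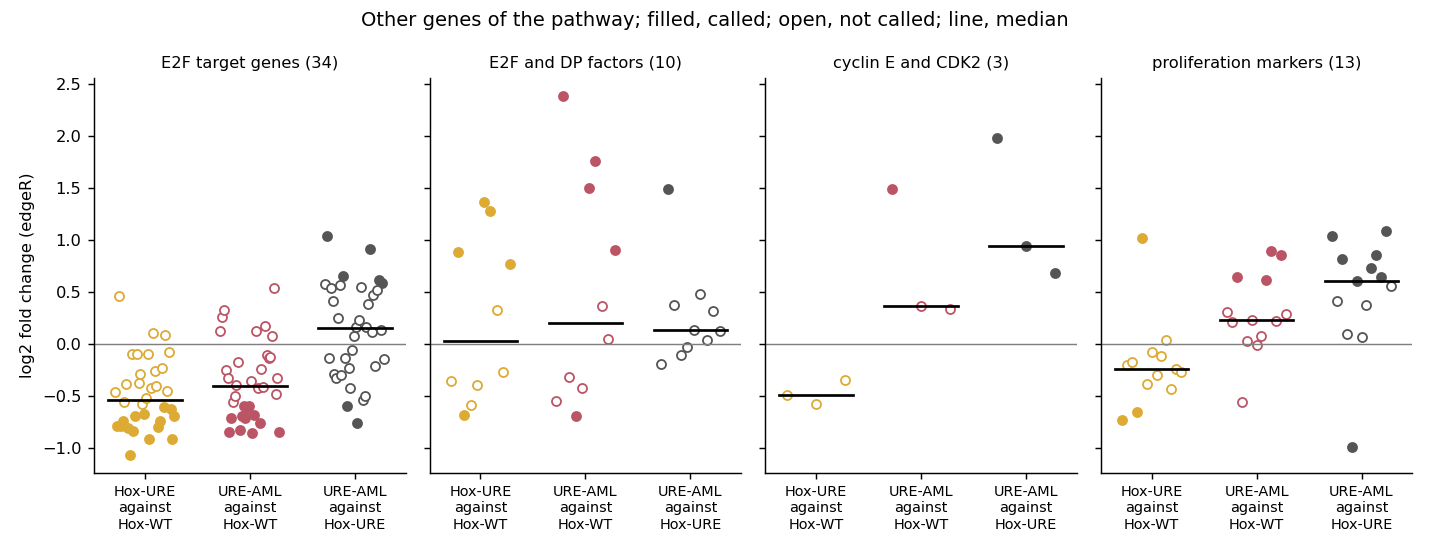
Each point is the edgeR log2 fold change (y axis) of a gene in 4 lists, for the 3 comparisons (x axis), with the median as a line and filled points called. The E2F target genes centre at -0.54 and -0.40 against Hox-WT, and the 3 genes of cyclin E and CDK2 all lie above 0.6 between the URE lines.

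Of 14 genes of CDK activation and of the turnover of D cyclins and p27, 2 were called higher and 2 lower in the progenitor comparison. The leukemia comparison gave the same counts, and between the URE lines 2 were higher and 1 lower. No count was above the share of all tested genes called. Besides *Skp2*, *Cdk7*, the kinase that activates CDK4 and CDK6, had a log2 fold change of 1.09 in the progenitor comparison and -1.49 between the URE lines. *Fbxo4* and *Fbxo31*, ubiquitin ligase subunits for cyclin D1, were higher in URE-AML than in Hox-WT by 1.57 and 1.13. In the progenitor comparison *Fbxo4* was called higher too (1.25, edgeR adjusted p = 0.000432) and *Fbxo31* was not called. *Fbxw7*, which serves cyclin E, was lower in both URE lines than in Hox-WT (-0.92 and -0.88), and *Cdc37*, a chaperone gene that serves CDK4, had -0.60 in the leukemia comparison (edgeR adjusted p = 0.0094).

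Of 18 genes that encode regulators of the members, 15 were tested. The progenitor comparison called 1 higher and 4 lower, the leukemia comparison 2 higher and 8 lower, and that of the URE lines 2 higher and 7 lower. *Bmi1*, a Polycomb gene known to hold down *Cdkn2a*, was lower in both URE lines than in Hox-WT (log2 -2.03 in Hox-URE and -0.91 in URE-AML, edgeR adjusted p = 1.17e-06 and 0.000174). *Cbx7*, another Polycomb gene, had 2.45, 1.92 and 0.616 CPM and was lower in URE-AML than in either Hox line (log2 -1.99 and -1.64, edgeR adjusted p = 0.00279 and 0.00879). *Myc*, known to raise *Ccnd2* and *Cdk4*, had 7309, 8110 and 7436 counts in Hox-WT, 3772, 2872 and 2507 in Hox-URE and 4722, 2971 and 3058 in URE-AML (log2 -1.09 and -0.83 against Hox-WT, edgeR adjusted p = 9.48e-05 and 0.000443). *Zbtb17*, which encodes Miz1, a partner of Myc, was lower in the progenitor comparison (log2 -0.93, edgeR adjusted p = 9.71e-05). *Foxo1*, whose protein is known to act on *Cdkn1b*, was higher in both URE lines than in Hox-WT (1.90 and 1.13). Between the URE lines *Foxo3* was lower in URE-AML (-1.80) and *Foxo4* higher (1.44). *Mycn* had 71, 144 and 131 counts in Hox-WT, 124, 239 and 221 in Hox-URE and 0 in each URE-AML library, which allows up to 0.121 to 0.143 CPM. *Stat5a*, a carrier of IL-3 signals, had -1.97 in the leukemia comparison.

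Over the 9 libraries, the gene most like *Cdkn2a* in log2 CPM was *Mycn* (Pearson's r = 0.998), and those most like *Cdkn2c* and *Ccnd3* were *Spry1* (r = 0.998) and *Wwtr1* (r = 0.998). The libraries form 3 lines, so such values mostly describe the order of the lines. For *Cdkn2a* 527 tested genes had an r above 0.95, for *Cdkn2c* 395 and for *Ccnd3* 354, against 1 for *Cdk6* and 10 for *Cdkn1b*.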

How the data were processed

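Libraries were stranded and made from poly-A RNA. According to the methods and notes, the authors ran Salmon (GRCm38) and collected its output per gene with tximport, so the deposited values are estimated counts per gene, whole numbers that keep each library's depth. The transcriptome release and any length scaling are not given in the sources used here, and a change in transcript use may alter such a count.

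Lines came from the labels. Genes with enough counts (filterByExpr, minimum count of 10) were kept, and all 9 libraries entered 1 edgeR 4.0.16 quasi-likelihood model (R 4.3.3) with line as the only factor and TMM factors of 0.938 to 1.04. Two-sided F tests were adjusted by Benjamini-Hochberg over 13082 genes. The standard error is the size of the log2 fold change over the square root of F. The code was tested on simulated data. Positions and lengths are from GENCODE M21 (54094 of 54347 identifiers found), shared sequence from BLAST+ 2.17.0 (at least 200 bases at 95% identity), and figures from matplotlib 3.10.9. Ratios of low genes are pooled counts over pooled effective library sizes, with exact 95% intervals. No pair of libraries agreed within sampling noise.

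Members and lists were chosen with earlier results of these data known. Named genes are the members, all inhibitors, pocket, cyclin E, CDK2, E2F and DP genes listed, the 3 called genes of each other pathway list with the largest change per direction and comparison, and, from among markers, coding genes within 200 kb of a member and the likest genes, those given. *Mllt3*, *Klhl9*, *Focad*, *Gm13285*, *Hacd4*, *Mrpl48-ps* and *Elavl2* were named after their values were seen. Alternatives were other scalings, no filter or a stricter one, only the 6 libraries compared, the replicate block, DESeq2 1.42.0, no fold change threshold, another gene length and each library left out.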

Additional observations from a re-analysis of the deposited data

How the results depend on the processing

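Of 502 alternative values of the 30 member fold changes, 493 kept their direction and side of the threshold. The sign turned for 2 differences that were not called: *Cdkn2b* between URE-AML and Hox-WT was 0.053 without URE-AML library 1 and ran from -1.26 (without library 3) to 0.053 over the libraries left out, and *Rb1* between the URE lines was 0.035 with library size alone and ran from -0.22 (without Hox-URE library 1) to 0.031 (without Hox-URE library 3). The other 6 concern *Cdkn2a* and *Ccnd1* and stand in the text. With at least 10 counts in every library, which tests 10022 genes, 3200, 3602 and 3553 genes were called in the progenitor comparison, the leukemia comparison and that of the URE lines, in place of 4873, 5648 and 5591. Library size alone gave 2502 higher and 2545 lower in the first comparison and 3166 and 2605 in the last, where TMM gave 2789 and 2084, and 2662 and 2929.

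With no fold change threshold, E2F targets were 1 higher and 26 lower, 2 and 21, and 14 and 7 in that order. Leaving out each library gave 0 to 1 higher in the leukemia comparison (1 without URE-AML library 1 or 2). Between the URE lines it gave 4 to 8 higher and 1 to 3 lower, with 8 higher without Hox-URE library 2, 3 lower without Hox-URE library 1 and 1 lower without Hox-URE library 2 or 3 or URE-AML library 1 or 2. With library size alone the last was 10 and 1. Same-numbered libraries correlated in their deviations from line means by 0.01 to 0.271, not above 0.1 in every pair, so the numbers were not taken as pairs. Yet each of the 9 libraries correlated best with a library of its own number among those of other lines. The main fit may therefore leave out an effect shared by number, and what the numbers stand for was not tested. With the replicate block, *Cdkn2a* was called in Hox-URE against Hox-WT, as given above. The replicate block called 2802 higher and 2106 lower, 3029 and 2650, and 2680 and 2904 in the order above.

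The level of *Ccnd1*, *Cdkn2a* and *Cdkn2b* in the lines where they were near 0 is limited by depth.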
